A study of Mus musculus with 4 samples.

Results

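Cpt1a, Cpt2, Acadl, Acadm, Hadha, Ppara, Ppard, Plin2, Angptl4 and Pdk4 are 10 of the 18193 genes that the array named by 1 symbol. They form a group of fatty acid oxidation genes and targets of the peroxisome proliferator-activated receptors (PPARs), and were chosen by these roles and by the co-culture over separate culture ratios of the same 4 arrays. All 18 probe sets annotated to one of these symbols alone were read, out of 45037 probe sets in the deposited table. Each array held RNA of Kupffer cells, the macrophages that live in the sinusoids of the liver, together with RNA of SL4 cells, a mouse colon carcinoma line. The 4 groups were Dectin-2 knockout Kupffer cells in co-culture with SL4 cells, wild-type Kupffer cells in co-culture with SL4 cells, knockout Kupffer cells and SL4 cells in separate culture, and wild-type Kupffer cells and SL4 cells in separate culture. The knockout is Clec4n-/-, and Clec4n encodes Dectin-2, a lectin receptor for fungal mannans. The Kupffer cells of every group came from female C57BL/6 mice aged 12 weeks and were sorted as CD45+ CD11b+ F4/80+, and SL4 cells carried no labelled deletion in any group. Cultures of 100000 cells of each type lasted 8 hours, and RNA of the separate cultures was mixed before labelling. How many mice stood behind an array is not given in the sources used here.

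Long-chain fatty acids enter mitochondria as carnitine esters. Cpt1a makes the ester at the outer membrane and sets the pace of the pathway, Cpt2 turns the ester back into an acyl-CoA at the inner membrane, and the acyl-CoA dehydrogenases and the trifunctional protein then shorten the chain. PPARs are nuclear receptors that sense fatty acids and pair with retinoid X receptors. Cpt1a, Plin2, Angptl4 and Pdk4 are known targets of these receptors in liver, muscle or macrophages.

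Cpt1a alone among the 10 genes reached a 2-fold ratio of co-culture over separate culture, and it did so in both genotypes. The lipoprotein lipase inhibitor gene Angptl4, the receptor gene Ppard and the pyruvate dehydrogenase kinase gene Pdk4 were higher by 1.22-fold to 1.58-fold. The enzymes that follow Cpt1a in the pathway lay between 1.17-fold higher, for Acadl in knockout, and 1.33-fold lower, for Acadm in knockout. Ppara stayed under the floor set for low signals. With 1 array per group there is no replicate error, and since these genes were chosen with the culture comparison known, its values are given as a description with no p-value. Every array mixed the RNA of Kupffer cells and SL4 cells, so the cell type behind a signal is unknown, and fewer cells of a type cannot be told apart from less RNA per cell.

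A signal was taken as measured above a floor of 76.1, the median over every probe set and array. Of the 10 genes, 9 lay above the floor in all 4 arrays and 1, Ppara, lay under it in all 4, and of the 18 probe sets 12 lay above it in all 4. Among the 9, 7 had a co-culture log2 ratio above 0 and 2 below 0 in each genotype, beside 47.0% of all genes above 0 in knockout and 46.7% in wild type. Their median was 0.23 in knockout and 0.19 in wild type, against a median of -0.02 over all genes in each genotype. The 1 of 9 with a 2-fold higher ratio stands beside 0.67% of all genes tested in knockout, 0.701% in wild type and 0.421% in both, and 0 of the 9 were 2-fold lower, beside 0.574% in knockout and 0.538% in wild type. In 6 of the 9 both co-culture arrays lay above both separate arrays, as they did in 19.6% of the 10637 genes above the floor in any array, and in 2 of the 9 both lay below, as in 25.6% of those genes.

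Among bright genes, those that exceeded the floor 4 times or more in 1 of the arrays compared, the middle 95% of co-culture log2 ratios ran between -0.61 and 0.50 in knockout and between -0.58 and 0.54 in wild type. Cpt1a and Angptl4 lay above that range in both genotypes and Ppard in knockout alone, which describes genes chosen on these ratios and is no test. The other measured genes lay inside it. The knockout over wild-type log2 ratios of bright genes, which hold array and genotype differences together, had a middle 95% between -0.39 and 0.36 in co-culture and between -0.36 and 0.40 in separate culture.

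**Figure D1:**
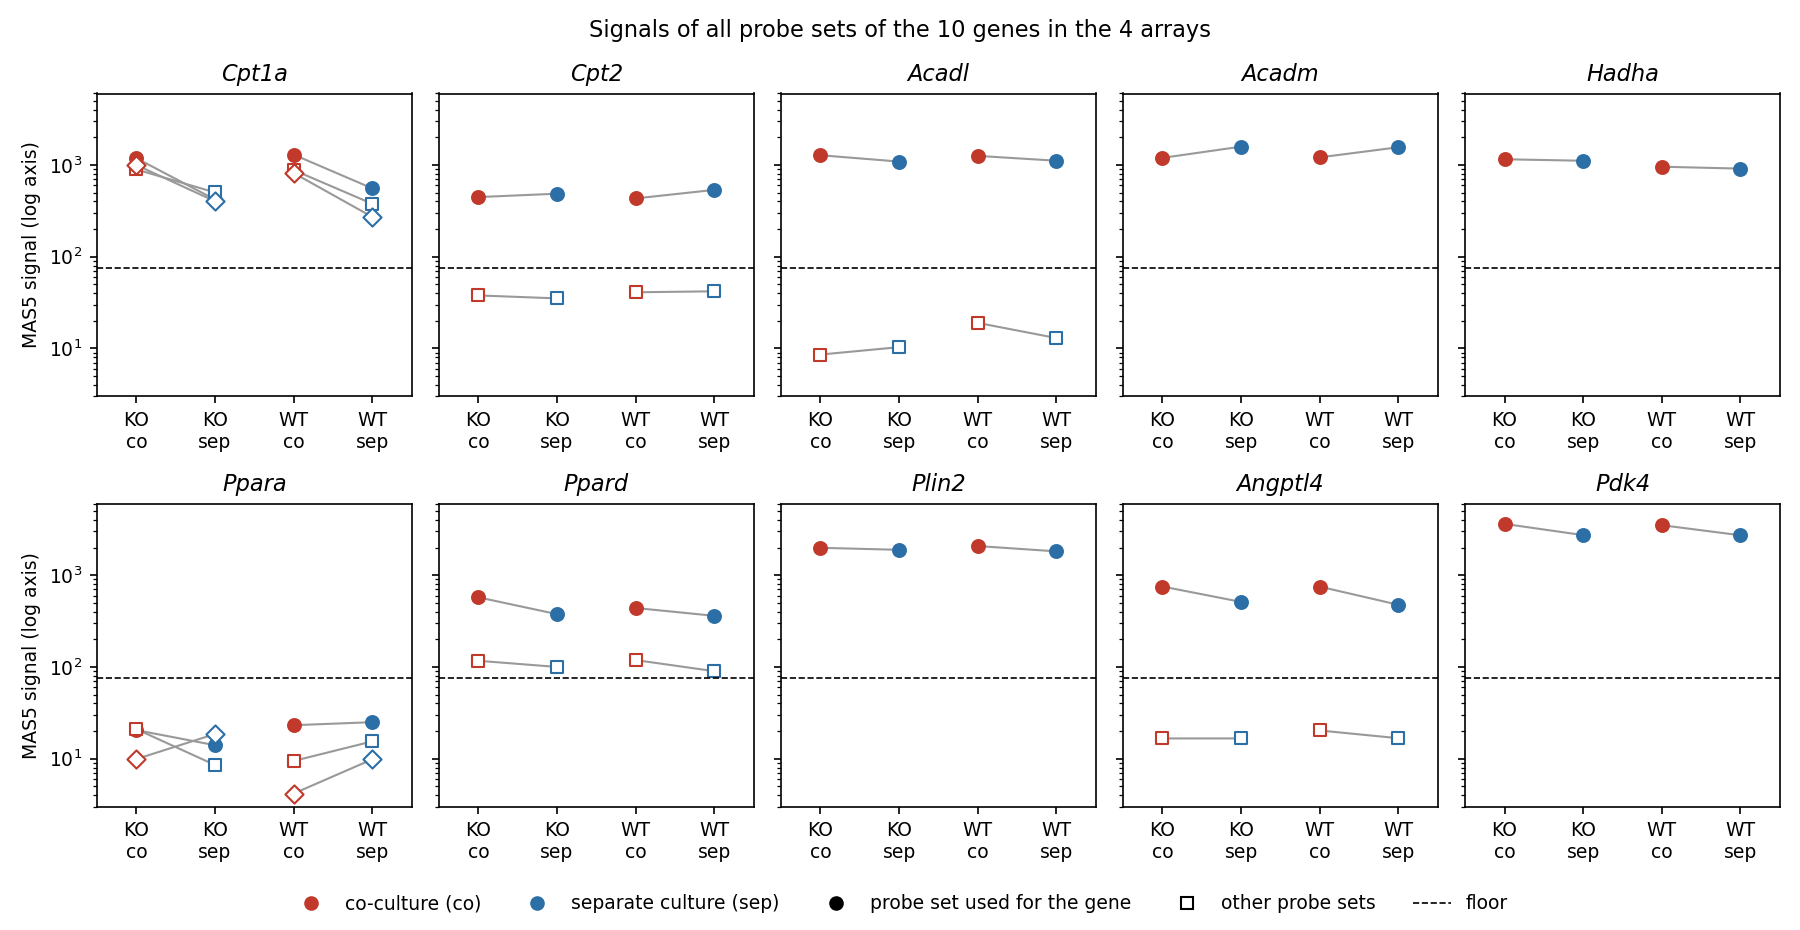
MAS5 signals on a log axis of every probe set of the 10 genes in the 4 arrays, 1 point per array, with red for co-culture (co), blue for separate culture (sep) and a dashed line at the floor of 76.1. All 3 Cpt1a probe sets are higher in co-culture in both genotypes, and all 3 Ppara probe sets lie under the floor.

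Cpt1a, carnitine palmitoyltransferase 1a, has 3 probe sets on the array, and its brightest stood for the gene. That probe set read 1184 in knockout co-culture and 1295 in wild-type co-culture, against 419 in knockout separate culture and 555 in wild-type separate culture. Both co-culture arrays lay well above both separate arrays, 2.82-fold in knockout and 2.33-fold in wild type. Ranked from the highest ratio, Cpt1a was number 20 of 10444 genes in knockout and number 50 of 10417 in wild type.

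The other Cpt1a probe sets pointed the same way with different sizes. The second probe set read 996 in knockout co-culture and 817 in wild-type co-culture, against 402 in knockout separate culture and 271 in wild-type separate culture. Its ratios were 2.48-fold in knockout and 3.01-fold in wild type. The third probe set read 892 in knockout co-culture and 880 in wild-type co-culture, against 501 in knockout separate culture and 377 in wild-type separate culture. Its ratio in knockout, 1.78-fold, was the only one of the 6 under 2-fold, and in wild type it was 2.33-fold. Of all probe sets with 1 symbol, 0.628% were 2-fold higher in knockout and 0.783% in wild type. Both of these probe sets carry the suffix x, which marks probes that may also bind other transcripts.

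The probe sets disagreed on the genotype. The brightest was lower in knockout than in wild type, by a log2 ratio of -0.13 in co-culture and -0.40 in separate culture. The second was higher in knockout, by 0.29 in co-culture and 0.57 in separate culture, and the third by 0.02 and 0.41. Likewise, the co-culture ratio was larger in knockout than in wild type by 1.21-fold in the brightest probe set, and smaller by 1.22-fold in the second and 1.31-fold in the third. The order of the genotypes in Cpt1a therefore changed with the probe set, while the order of the culture conditions did not.

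RefSeq promoter windows of assembly GRCm38.p6, from 250 bases before to 50 bases after the start of a gene, were matched by symbol for 9 of the 10 genes, all but Angptl4. The hexamer AGGTCA, the core that PPARs and other nuclear receptors bind, stood in 3 of the 9 windows on either strand, against 16.3% of all 32851 windows. The 3 are shown because they belong to a gene that was over 2-fold higher in co-culture, a gene that was nearly level and a gene that was lower. The windows are chr19:3323051-3323350 on the plus strand for Cpt1a, chr4:86670010-86670309 on the minus strand for Plin2 and chr3:153944594-153944893 on the minus strand for Acadm. Each is written 5′ to 3′ along its gene, with the hexamer, which reads TGACCT on this strand, in capitals.
Cpt1a: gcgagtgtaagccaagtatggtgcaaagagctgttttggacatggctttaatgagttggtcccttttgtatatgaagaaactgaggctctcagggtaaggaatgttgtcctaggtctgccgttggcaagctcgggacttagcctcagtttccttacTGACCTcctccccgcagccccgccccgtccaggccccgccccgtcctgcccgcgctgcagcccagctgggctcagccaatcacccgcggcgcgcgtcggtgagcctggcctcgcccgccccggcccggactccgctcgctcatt
Plin2: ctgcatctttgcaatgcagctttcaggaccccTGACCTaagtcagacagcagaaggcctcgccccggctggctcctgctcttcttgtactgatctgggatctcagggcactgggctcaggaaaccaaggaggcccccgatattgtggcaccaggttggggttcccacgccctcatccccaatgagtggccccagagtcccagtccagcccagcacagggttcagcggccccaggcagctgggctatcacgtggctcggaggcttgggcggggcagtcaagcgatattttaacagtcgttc
Acadm: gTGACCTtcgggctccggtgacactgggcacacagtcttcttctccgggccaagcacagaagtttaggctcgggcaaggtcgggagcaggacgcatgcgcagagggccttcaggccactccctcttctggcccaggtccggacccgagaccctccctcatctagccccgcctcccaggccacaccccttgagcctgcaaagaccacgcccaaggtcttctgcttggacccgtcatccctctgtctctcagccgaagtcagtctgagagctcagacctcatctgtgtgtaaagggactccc
With 1 as the first base of the gene, the hexamer lies at positions -94 to -89 in Cpt1a, -218 to -213 in Plin2 and -249 to -244 in Acadm. Its direct repeat with 1 base between the copies, AGGTCANAGGTCA, the form that a PPAR binds with a retinoid X receptor, stood in 0 of the 9 windows and in 0.0396% of all windows. Only this exact repeat was searched, and at so low a share 0 of 9 windows cannot show whether a looser repeat is there. GGGCGG, the box that Sp factors bind, stood in 7 of the 9 windows, Cpt1a and Plin2 among them, and in 35.7% of all. TGANTCA, the core that AP-1 factors bind, stood in 0 of the 9 and in 7.81% of all. Both strands were searched, and none of the hexamers overlapped a GGGCGG. These matches are letters in short windows and not measured sites.

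The enzymes downstream of Cpt1a did not share its ratio. Cpt2, the inner-membrane carnitine palmitoyltransferase, read 446 in knockout co-culture and 431 in wild-type co-culture, against 486 in knockout separate culture and 534 in wild-type separate culture. Both co-culture arrays were a little below both separate arrays, by 1.09-fold in knockout and 1.24-fold in wild type. Its second probe set lay under the floor in all 4 arrays, at 35.1 to 41.9.

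Acadl, the long-chain acyl-CoA dehydrogenase, read 1274 in knockout co-culture and 1254 in wild-type co-culture, against 1087 in knockout separate culture and 1111 in wild-type separate culture. It was higher in co-culture by 1.17-fold in knockout and 1.13-fold in wild type, and its second probe set stayed under the floor. Acadm, the medium-chain acyl-CoA dehydrogenase, read 1193 in knockout co-culture and 1208 in wild-type co-culture, against 1582 in knockout separate culture and 1558 in wild-type separate culture. It was lower in co-culture by 1.33-fold in knockout and 1.29-fold in wild type. Its culture conditions thus lay further apart than its genotypes, which were nearly level. The long-chain and medium-chain dehydrogenases, which take turns on the same fatty acid as it shortens, had ratios of opposite direction.

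Hadha, the alpha subunit of the mitochondrial trifunctional protein, read 1152 in knockout co-culture and 955 in wild-type co-culture, against 1110 in knockout separate culture and 911 in wild-type separate culture. Its co-culture ratios were 1.04-fold in knockout and 1.05-fold in wild type. Its knockout over wild-type ratio exceeded those of 91.2% of genes in co-culture and 89.5% in separate culture. Of the 10 genes it was the only one above the floor whose culture conditions overlapped.

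Among the receptors, Ppara, the form that drives fatty acid oxidation in hepatocytes, had no measured signal. Its 3 probe sets read between 4.17 and 25 over the 4 arrays, all under the floor, so no ratio is given. Ppard, the form expressed in most tissues and in macrophages, read 573 in knockout co-culture and 439 in wild-type co-culture, against 376 in knockout separate culture and 361 in wild-type separate culture. It was higher in co-culture by 1.53-fold in knockout and 1.22-fold in wild type, with the knockout co-culture array standing above the other 3. In its dimmer probe set, which read 89.9 to 119, the order of the genotypes was the other way, at 1.17-fold in knockout and 1.32-fold in wild type. A probe set that the annotation gives to Ppard together with another gene was not used.

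Of the known PPAR targets among the 10 genes, Angptl4, a secreted inhibitor of lipoprotein lipase, had the highest ratios after Cpt1a. It read 752.0 in knockout co-culture and 750.0 in wild-type co-culture, against 511 in knockout separate culture and 475 in wild-type separate culture. The co-culture arrays were nearly equal and both higher, by 1.47-fold in knockout and 1.58-fold in wild type. Its ratio exceeded those of 97.2% of genes in knockout and 97.6% in wild type. Its second probe set lay under the floor, at 16.6 to 20.3.

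Pdk4, the kinase that switches off pyruvate dehydrogenase and so spares glucose when fat is burned, read 3618 in knockout co-culture and 3503 in wild-type co-culture, against 2731 in knockout separate culture and 2720 in wild-type separate culture. It was higher in co-culture by 1.33-fold in knockout and 1.29-fold in wild type, and the genotypes lay close within each culture condition. Plin2, a coat protein of lipid droplets, read 1987 in knockout co-culture and 2077 in wild-type co-culture, against 1888 in knockout separate culture and 1816 in wild-type separate culture. Its ratios were 1.05-fold in knockout and 1.14-fold in wild type, so the lipid droplet marker among the targets was close to level. At a threshold of 1.5-fold, Cpt1a and Ppard passed in knockout, where 2.5% of all genes were that much higher, and Cpt1a and Angptl4 passed in wild type, where 3.31% were.

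**Figure D2:**
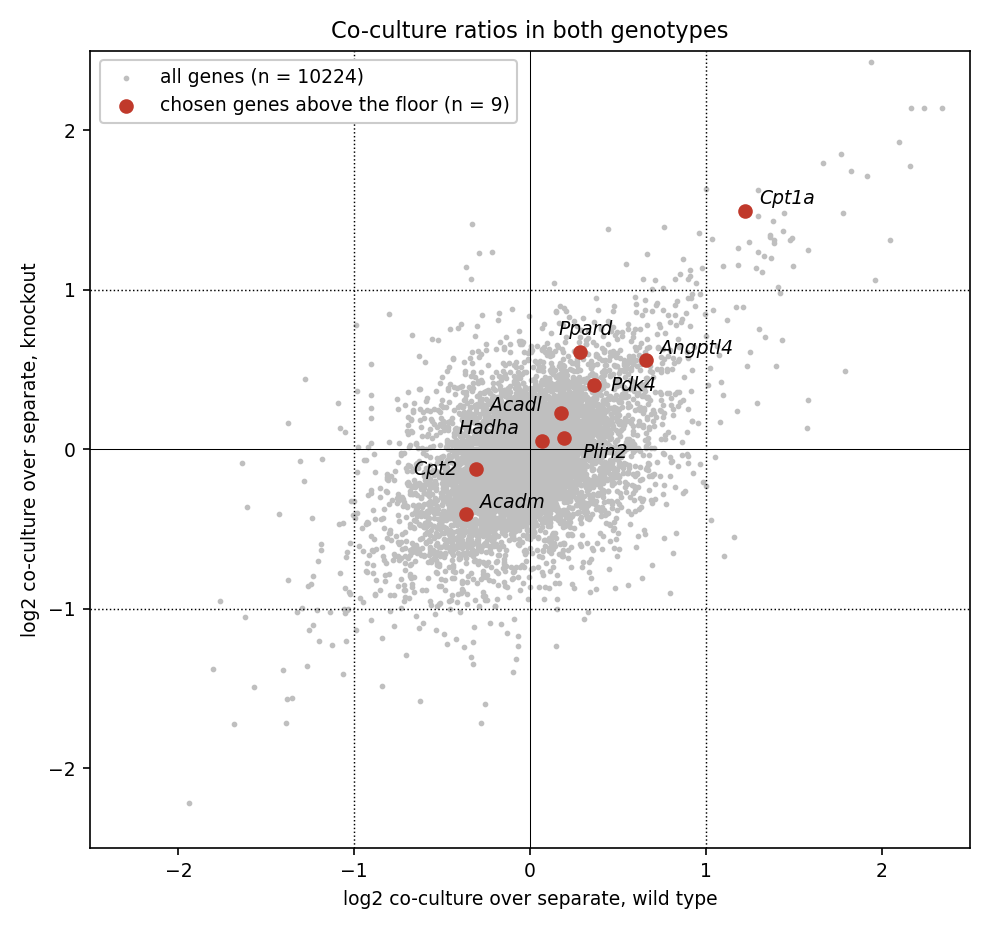
Log2 ratio of co-culture over separate culture in wild type (x axis) and in knockout (y axis), 1 grey point per gene (n = 10224) and red points for the 9 genes of the group above the floor, with dotted lines at 2-fold. Cpt1a lies past 2-fold in both genotypes and the others inside, and 5 genes fall beyond the axes.

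The genotype comparison asks what the lack of Dectin-2 on the Kupffer cells changes, and it did not enter the rule by which these genes were chosen. Over the 4 arrays, with the culture condition as a block, limma called 0 of 10637 genes (0.0%) at an adjusted p under 0.05, with 739, or 6.95%, at an unadjusted p under 0.05. With other settings limma called 1 gene, after scaling to a common median, and 3, with an intensity trend. None of the 9 measured genes passed, with adjusted p-values between 0.697 and 0.996. The fit has 1 residual degree of freedom, and on simulated arrays with 10637 genes it called 60% of 8-fold differences and 0% of 4-fold ones, so differences of 4-fold or less were not detectable by it. No gene of the 9 was 2-fold apart between the genotypes, beside 0.24% of all genes in co-culture and 0.203% in separate culture.

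Hadha was the 1 of the 9 with an unadjusted p under 0.05, with a log2 difference of knockout minus wild type of 0.28 ± 0.09 (SE), an unadjusted p of 0.034 and an adjusted p of 0.697 in limma. It was higher in knockout by 1.21-fold in co-culture and 1.22-fold in separate culture. Cpt1a had a log2 difference of -0.27 ± 0.11 (SE) in its brightest probe set, with a 95% interval from -0.57 to 0.04 and an adjusted p of 0.718 in limma. As the median over its 3 probe sets the difference was 0.17. Ppard had 0.22 ± 0.12 (SE), from a log2 ratio of 0.39 in co-culture and 0.06 in separate culture.

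The remaining measured genes had log2 differences between -0.04 for Cpt2 and 0.05 for Angptl4. Their 95% intervals ran no further than -0.32 for Cpt2 on the low side and 0.31 for Angptl4 on the high side. In terms of the co-culture ratio itself, the genotypes differed most in Ppard, where it was 1.25-fold larger in knockout than in wild type. That order holds for the brightest probe sets, and as medians over probe sets the log2 difference was 0.074 for Ppard and -0.38 for Acadl, whose second probe set lies under the floor. None of the 9 reached a 2-fold difference between the genotypes' co-culture ratios, as 1.06% of all genes did, and this difference was not tested because it is the residual of the fit.

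**Figure D3:**
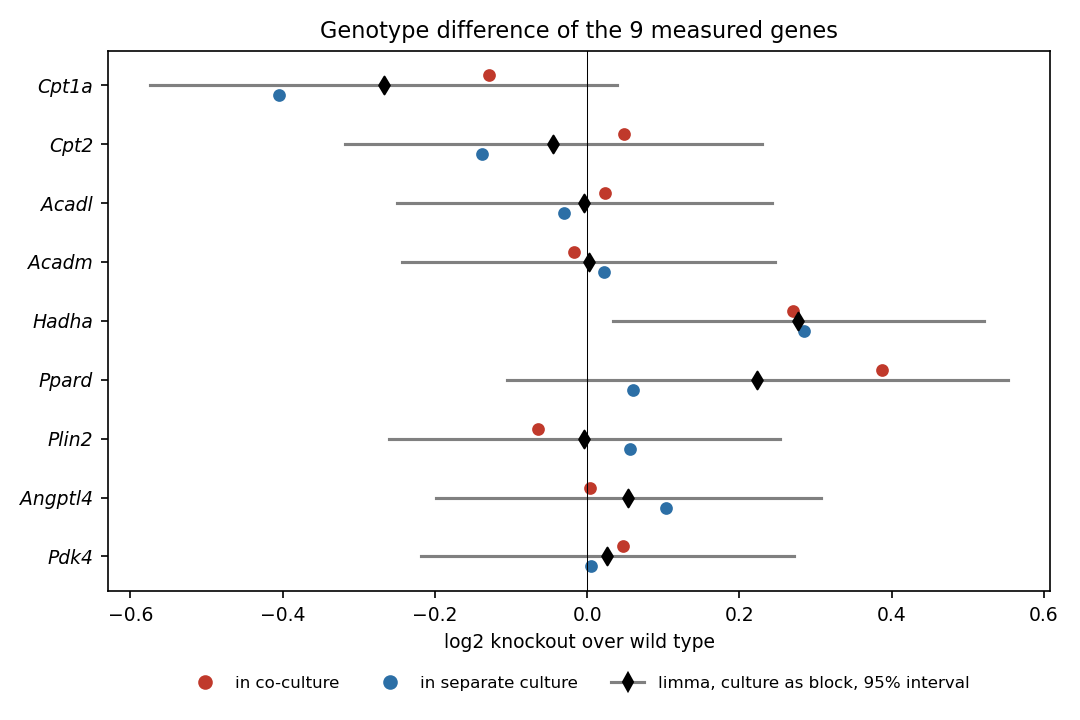
Log2 ratio of knockout over wild type for the 9 measured genes, as red points for co-culture, blue points for separate culture and black diamonds for the limma estimate with its 95% interval and culture as a block. The interval of Hadha, from 0.03 to 0.52, is the only one that leaves out 0, and its adjusted p is 0.697.

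The wider pathway was read from 10 lists of genes, none of which holds 1 of the 10. With the brightest probe set for each gene, 1 gene in all lists together was 2-fold apart in either genotype, G0s2. This stands beside 1.24% of all genes 2-fold apart in either direction in knockout and 1.24% in wild type. Dimmer probe sets of Pdk1 and Prkag1 were lower in co-culture by 2.39-fold and 2.32-fold in knockout. The lists' median co-culture log2 ratios ran between -0.28 and 0.02 in knockout and between -0.23 and 0.03 in wild type, beside -0.02 over all genes in each. Of all genes 47.0% had a ratio above 0 in knockout and 46.7% in wild type, beside which the counts above 0 in the lists are to be read.

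For activation and import of long-chain fatty acids, 11 of 13 genes on the array lay above the floor and 0 were 2-fold apart, with a median log2 ratio of -0.14 in knockout and -0.08 in wild type. Acsl4, an acyl-CoA synthetase that prefers arachidonic acid, had 0.16 in knockout and 0.28 in wild type, and Crat, the acetyl transferase of the carnitine system, 0.08 and 0.30. Cpt1c, the paralog of Cpt1a found mainly in neurons, had -0.15 in knockout and 0.23 in wild type. Slc27a1, a fatty acid transport protein, had -0.26 in knockout and -0.32 in wild type, and the synthetase Acsl6 had -0.30 and -0.08.

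Mitochondrial beta-oxidation had 19 of 20 genes above the floor and 0 that were 2-fold apart, with 7 of 19 above 0 in knockout and 3 of 19 in wild type. Its median log2 ratio was -0.07 in knockout and -0.16 in wild type. Acaa2, the thiolase that ends each round, read 407 in knockout co-culture and 306 in wild-type co-culture, against 506 in knockout separate culture and 504 in wild-type separate culture. Decr1, a reductase for unsaturated chains, had a log2 ratio of -0.24 in knockout and -0.50 in wild type, and Mcee, an epimerase of the propionate pathway, -0.61 and -0.16. Etfdh, which passes the electrons on to ubiquinone, had -0.12 in knockout and 0.36 in wild type. For Acaa2, 1 of its 2 other probe sets stood at 0.02 in knockout.

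Peroxisomal beta-oxidation had 11 of 15 genes above the floor and 0 that were 2-fold apart, with 1 of 11 above 0 in knockout and 4 of 11 in wild type. Its median was -0.28 in knockout and -0.06 in wild type. Decr2, the peroxisomal dienoyl-CoA reductase, had a log2 ratio of -0.36 in knockout and -0.41 in wild type, and Phyh, which starts alpha-oxidation of phytanic acid, -0.29 and -0.28. Pex11a, a peroxisome proliferation factor, had -0.33 in knockout and 0.42 in wild type, while its second probe set had 0.28 and -0.41.

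The list of PPAR partners and co-regulators had 14 of 17 genes above the floor in 1 array or more, and 0 were 2-fold apart. The coactivator gene Ppargc1b, which encodes PGC-1beta, read 508 in knockout co-culture and 601 in wild-type co-culture, against 860 in knockout separate culture and 984 in wild-type separate culture. Both co-culture arrays lay below both separate arrays, 1.69-fold in knockout and 1.64-fold in wild type. Rxrb, a retinoid X receptor, had a log2 ratio of -0.02 in knockout and -0.42 in wild type. Crebbp, a histone acetyltransferase, had 0.24 and 0.05, with 1 of its other probe sets at -0.48 in knockout, and the PGC-1 relative Pprc1 had 0.09 and 0.12.

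The list of other PPAR targets had 24 genes on the array and 11 above the floor in 1 array or more, with 0 that were 2-fold apart. Its median was -0.04 in knockout and -0.06 in wild type, and its leading genes did not point one way. Fabp4, a fatty acid-binding protein of adipocytes and macrophages, read 494 in knockout co-culture and 464 in wild-type co-culture, against 382 in knockout separate culture and 360.5 in wild-type separate culture. Vldlr, a lipoprotein receptor, read 186 in knockout co-culture and 186 in wild-type co-culture, against 339 in knockout separate culture and 296 in wild-type separate culture. Fabp4 was thus 1.29-fold higher in co-culture in each genotype, and Vldlr lower by 1.82-fold in knockout and 1.59-fold in wild type. Lpl, the lipase that Angptl4 inhibits, had a log2 ratio of -0.34 in knockout and -0.37 in wild type, and Fabp3, the heart form, -0.46 and -0.51, with its second probe set at 0.17 in wild type.

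In the list of lipid droplets and lipolysis 11 of 19 genes exceeded the floor in 1 array or more, and the median was 0.02 in knockout and -0.06 in wild type. Its extremes were the genes of 2 inhibitors of the lipase Pnpla2. Hilpda, the hypoxia-inducible one, read 675 in knockout co-culture and 682 in wild-type co-culture, against 400 in knockout separate culture and 451 in wild-type separate culture. G0s2 read 95.4 in knockout co-culture and 88.3 in wild-type co-culture, against 163 in knockout separate culture and 187 in wild-type separate culture. Hilpda was thus higher in co-culture by 1.69-fold in knockout and 1.51-fold in wild type, and G0s2 lower by 1.71-fold and 2.11-fold. Pnpla2 itself, which opens triglyceride breakdown, had a log2 ratio of 0.20 in knockout and 0.37 in wild type. Fitm2, a protein of droplet budding, had 0.63 and 0.07, the droplet coat gene Plin3 -0.08 and -0.39, and Bscl2, which encodes seipin, -0.13 and -0.44.

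Fatty acid synthesis and desaturation had 12 of 16 genes above the floor and 0 that were 2-fold apart, with 3 of 12 above 0 in knockout and 2 of 12 in wild type. Its median log2 ratio was -0.08 in knockout and -0.09 in wild type. Scd1, the desaturase that makes oleate, read 1082 in knockout co-culture and 1005 in wild-type co-culture, against 1784 in knockout separate culture and 1604 in wild-type separate culture, so that it was lower by 1.65-fold in knockout and 1.60-fold in wild type. Its paralog Scd2 had a log2 ratio of -0.26 in knockout and -0.57 in wild type, and Slc25a1, the mitochondrial citrate carrier, -0.21 and -0.70. These were the 3 lowest of the list. The 3 highest by mean ratio, in their brightest probe sets, were Me1 at 0.20 in knockout and -0.03 in wild type, Fasn at 0.05 and -0.0005, and Acly at -0.01 and 0.04.

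In the pyruvate dehydrogenase list all 12 genes on the array exceeded the floor in 1 array or more, 0 were 2-fold apart, and the median was -0.22 in knockout and -0.23 in wild type. Pdk1, a kinase of the same family as Pdk4, read 322 in knockout co-culture and 330 in wild-type co-culture, against 522 in knockout separate culture and 488 in wild-type separate culture. Pdk1 was lower in co-culture by 1.62-fold in knockout and 1.48-fold in wild type, where Pdk4 was higher. A dimmer probe set of Pdk1 was lower by 2.39-fold in knockout and 1.53-fold in wild type. Pdp1, a phosphatase that reverses these kinases, had a log2 ratio of -0.28 in knockout and -0.67 in wild type, and Mpc1, a subunit of the mitochondrial pyruvate carrier, -0.47 and -0.25. Pdhx, the highest of the list by mean ratio, had 0.20 and 0.04. In all, 4 of 11 genes were above 0 in knockout and 3 of 12 in wild type.

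The AMP-activated kinase, which relieves the brake on Cpt1a by lowering malonyl-CoA, had 8 of 9 listed genes above the floor and 0 that were 2-fold apart. Its median was -0.17 in knockout and 0.00 in wild type, with 1 of 8 above 0 in knockout and 4 of 8 in wild type. Prkag2, a gamma subunit, had a log2 ratio of -0.53 in knockout and -0.30 in wild type, and Prkag1, another, -0.61 and 0.29. In the list of angiopoietin-like genes and lipoprotein lipase 4 of 7 genes exceeded the floor in 1 array or more and 0 were 2-fold apart, with a median of -0.27 over 3 genes in knockout and -0.18 over 4 in wild type. Lmf1, which lipoprotein lipase needs for its folding, had -0.27 in knockout and -0.10 in wild type.

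**Figure D4:**
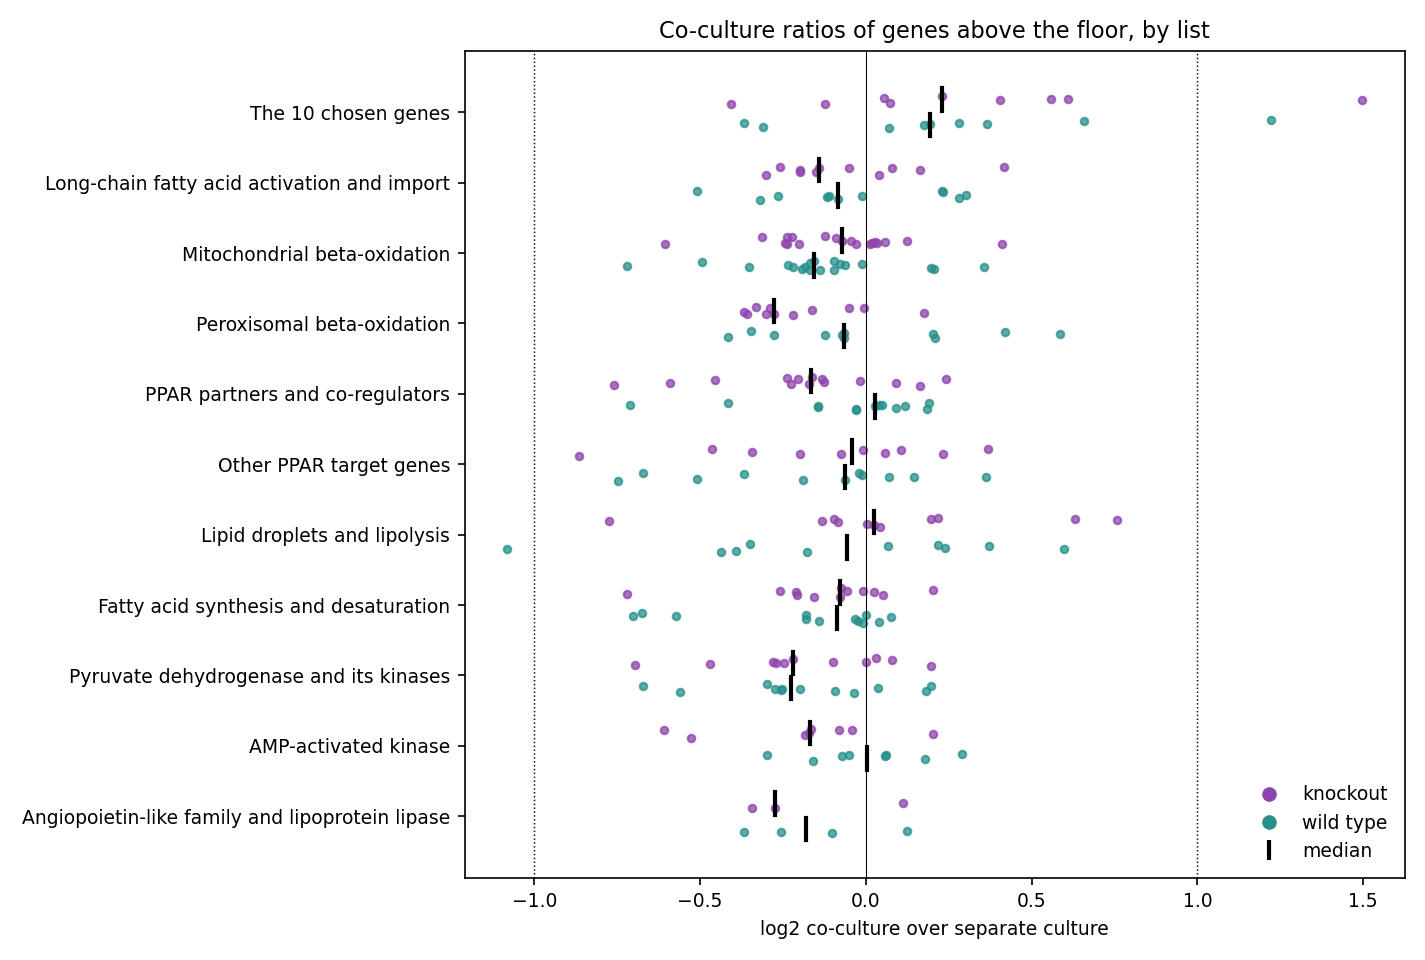
Log2 ratio of co-culture over separate culture for the genes above the floor, with the 10 chosen genes in the top row and each of the 10 pathway lists under it, purple for knockout and green for wild type, black bars at the medians and dotted lines at 2-fold. Past 2-fold lie Cpt1a, in both genotypes, and G0s2 of the lipid droplet list, in wild type.

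The genes with signals most like those of Cpt1a were sought by the distance between log2 signals centred on each gene's mean over the 4 arrays, among 8892 other genes. Among the nearest 5, Tgfb1 at a distance of 0.08, Pde4b at 0.13 and Nfkb2 at 0.18 were above the floor in all 4 arrays, where the median gene lay at 1.42. With 4 arrays this is a likeness of 4 values per gene. It holds for the brightest Cpt1a probe set, which was lower in knockout than in wild type, while the other Cpt1a probe sets were higher in knockout. Tgfb1, transforming growth factor beta 1, read 437 in knockout co-culture and 513 in wild-type co-culture, against 158 in knockout separate culture and 209 in wild-type separate culture. The co-culture log2 ratios were 1.43 in knockout and 1.38 in wild type for Pde4b, a cyclic AMP phosphodiesterase, and 1.32 and 1.04 for Nfkb2, an NF-kappaB subunit. A dimmer probe set of each had smaller ratios, 0.74 in knockout and 0.87 in wild type for Pde4b and 1.06 and 0.45 for Nfkb2. The other nearest genes were Igfbp2, an insulin-like growth factor-binding protein, and Cish, a cytokine signalling inhibitor, whose knockout separate arrays lay under the floor and were set to it, so their distances are not measured values.

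Markers of the cell types that the arrays could hold were read beside the Cpt1a ratio. Of 20 Kupffer cell and macrophage markers 9 lay above the floor in all 4 arrays, with a summed signal over the list of 2418 in knockout co-culture and 2495 in wild-type co-culture, against 2410 in knockout separate culture and 2093 in wild-type separate culture. The 9 had median co-culture log2 ratios of 0.29 in knockout and 0.26 in wild type. Of the 9, 7 had ratios above 0 and 2 below 0 in each genotype, beside 47.0% of all genes above 0 in knockout and 46.7% in wild type. The 2 were Laptm5 and Cd53 in knockout and Csf1r and Fcer1g in wild type. C1qb, a complement component of macrophages, was the 1 marker past 2-fold, in wild type and in the brightest of its 3 probe sets. It read 211 in knockout co-culture and 264 in wild-type co-culture, against 147 in knockout separate culture and 100.3 in wild-type separate culture. C1qa and C1qc, of the same complex, were under the floor in all 4 arrays. The defining Kupffer cell genes Clec4f, Timd4, Vsig4 and Adgre1 were under the floor in all 4 arrays. So were Ptprc, at 13.8 to 36.4, and Itgam, at 0.456 to 24.3. Ptprc, Itgam and Adgre1 encode the proteins by which the Kupffer cells were sorted, so none of the sort markers had a measured signal. Marco, Spi1 and Mpeg1 were under the floor as well. The share of Kupffer cell RNA in the arrays, on which the genotype comparison rests, was not tested. Of 15 epithelial and colon carcinoma markers 3 exceeded the floor in 1 array or more, with sums of 1081 to 1227 over the arrays, and Krt8, Cdh1 and Cdx2 stayed under it. Of 11 mesenchymal markers 7 did, with sums of 28761 to 33314 and median log2 ratios of -0.19 in knockout and -0.39 in wild type. Of 10 hepatocyte markers 4 did, with sums of 838 to 974. Of 4 adipocyte markers Fabp4 alone did, and Adipoq and Lep, 8 endothelial and 4 neutrophil markers were under the floor. The part of these cell types in the Cpt1a ratio was not tested. Clec4n, the deleted gene, was under the floor in all arrays, where its brighter probe set read 8.19 in knockout co-culture against 17.6 in wild-type co-culture, and 8.29 in knockout separate culture against 14.2 in wild-type separate culture. Whether that probe set lies in the deleted stretch is not known, so it is a weak check of the labels.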

How the data were processed

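The authors deposited 1 table of probe set intensities on a linear scale, made from 1-colour arrays with Affymetrix Expression Console 1.4 and MAS5 per the submitters' processing notes. MAS5 scales each array, and the 4 means with 2% trimmed off either end were 497 or 498, so signals are relative within an array. Labelling started from 20 ng of total RNA with an amplification kit, per the labels' protocols. Detection calls, scan dates and slides were not used here. Of 45037 probe sets the platform annotation gave 1 symbol to 34945 and several to 932. The 9160 that it does not list stay unnamed. Entrez numbers matched 34741 of the 34945 in the RefSeq table of GRCm38.p6 and changed 0 symbols.

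The probe set with the highest average log2 signal stood for a gene. Signals were raised to the floor of 76.1, then log2-transformed, with no further scaling. Comparisons covered genes that exceeded the floor in 1 of their arrays or more, and each array had 10117 to 10187 such genes. Groups came from the sample titles, with 1 array each, a number that limits the precision. Culture was compared within each genotype without a test. Genotype was tested with limma 3.58.1 in R 4.3.3 (lmFit and eBayes on the log2 intensities, culture as a block, two-sided, Benjamini-Hochberg over all genes). Both steps were checked on simulated arrays.

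The 10 genes and the lists were chosen with earlier results of these data known. Named list genes came from the 3 highest and 3 lowest mean co-culture ratios of a list among genes above the floor in all 4 arrays, or were 2-fold apart. The genes most like Cpt1a were the nearest 5 above 2 times the floor in at least 2 arrays. Alternatives changed the floor, the scaling between arrays, the probe set rule, the filter on dim genes, the fold threshold and the limma settings.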

Additional observations from a re-analysis of the deposited data

Results flagged for a closer look

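Cpt2, Acadl, Acadm and Plin2 had genotype ratios of opposite directions in the culture conditions, and the differences were not tested. The share of all genes with such opposite directions was not counted. Of all genes, 49.5% had a knockout over wild-type ratio above 0 in co-culture and 51.1% in separate culture. The log2 ratio of knockout over wild type was 0.0487 in co-culture and -0.138 in separate culture for Cpt2, 0.0231 and -0.0308 for Acadl, -0.0178 and 0.0221 for Acadm, and -0.0641 and 0.0562 for Plin2. All of these lay inside the middle 95% of such ratios over all genes, -0.51 to 0.48 in co-culture and -0.44 to 0.53 in separate culture.

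Of the 105 genes of the pathway lists with a ratio in both genotypes, 41 had co-culture ratios of opposite directions in the genotypes, as 36.2% of all genes had, and these differences were not tested either. The widest gap was in Slc22a5, a carnitine transporter named after its values were seen, with a log2 ratio of 0.42 in knockout and -0.51 in wild type. Among the list genes named in the results, Me1, Fasn and Acly were such genes. So were Cpt1c, Etfdh, Pex11a and Prkag1. Their log2 ratio of co-culture over separate culture was -0.15 in knockout and 0.23 in wild type for Cpt1c, -0.12 and 0.36 for Etfdh, -0.33 and 0.42 for Pex11a, and -0.61 and 0.29 for Prkag1. The second probe set of Prkag1 showed the same directions, at -1.22 in knockout and 0.56 in wild type, and that of Pex11a the opposite ones, at 0.28 and -0.41.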

How the results depend on the processing

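Cpt1a stayed over 2-fold higher in co-culture under all 6 alternatives of floor, scaling, probe set rule and dim-gene filter, at log2 ratios of 1.25 to 1.55 in knockout and 1.11 to 1.22 in wild type. The changes of floor and the dim-gene filter could not move the log2 values of the measured genes, whose signals exceeded those limits in every array. The counts of kept values below include these fixed ones, so only scaling and the probe set rule put the ratios to a trial. With a threshold of 1.5-fold in place of 2-fold the count of the 10 genes that were higher was 2 in knockout and 2 in wild type. Of 108 alternative values of single genes' co-culture ratios, 106 kept their direction and their side of 2-fold, and the exceptions were Hadha at -0.04 in wild type with a common median and Acadl at -0.02 in knockout as the median over probe sets. Of 72 alternative genotype differences 68 kept their direction, and the exceptions were Acadm at -0.00099 with quantile normalization and -0.02 with a common median, and, as medians over probe sets, Cpt1a at 0.17 and Angptl4 at -0.05. Acadl kept its direction but reached -0.37 as a median over probe sets, which takes in a probe set under the floor. Of 54 alternative differences between the genotypes' co-culture ratios 51 stayed within 0.1, and the exceptions, all as medians over probe sets, were Cpt1a at 0.025, Acadl at -0.38 and Ppard at 0.074. No alternative brought 1 of the 10 genes past the threshold in limma, where adjusted p-values ran from 0.341 to 0.999. Over all genes limma called 1 with a common median and 3 with an intensity trend.

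Counts of genes at least 2-fold higher in co-culture were 70 in knockout and 73 in wild type in the main setting. They were 128 in knockout and 155 in wild type without a floor. With a floor of 2 times the main one they were 48 in knockout and 46 in wild type. The filter on dim genes left 46 in wild type. Counts of lower genes were 60 in knockout and 56 in wild type in the main setting. They were 111 in knockout and 103 in wild type without a floor, 31 in knockout and 29 in wild type with the higher floor and likewise with the dim-gene filter, and 93 in wild type with a common median. The cause was not tested beyond the fewer genes that the stricter filters cover. Scaling to a common median moved the median of all genes in wild type to -0.13, and the wild-type list medians moved with it: import -0.20, mitochondrial -0.27, peroxisomal -0.18, co-regulators -0.083, other PPAR targets -0.18, lipid droplets -0.17, synthesis -0.20, AMP-activated kinase -0.11 and angiopoietin-like genes -0.29. As medians over probe sets, peroxisomal genes were at -0.30 and the kinase list at 0.17 in wild type, and co-regulators at -0.0086 and other PPAR targets at -0.19 in knockout. With the dim-gene filter the angiopoietin-like list was at -0.37 in wild type. No array could be left out, since each group has 1. No paired analysis was possible because each group has 1 array, so the shared replicate number forms no pairs within a comparison, and the block in limma was the culture condition instead.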
